A study of Mus musculus with 9 samples.

Results

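The genes described here encode the leukocyte integrins and the endothelial molecules that capture leukocytes from the blood, measured in mouse lung with and without irradiation. They were 10 of the 19698 genes named on the arrays, and were taken by name from the known adhesion pathway, with earlier results of these data known. They comprised Itgb2 and its partners Itgal, Itgam, Itgax and Itgad, the immunoglobulin ligands Icam1, Icam2 and Vcam1, and the selectins Selp and Sele. All 10 were measured, each by its brightest probe.

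Leukocytes leave the blood in steps. Endothelial selectins slow the cells until they roll, chemokines then switch their integrins to a state of high affinity, and the integrins bind immunoglobulin ligands on the vessel wall. The common beta2 chain, encoded by Itgb2, reaches the cell surface only with an alpha chain, and leukocytes that lack it arrest poorly on ICAM ligands. Inflammatory cytokines acting through NF-kappaB are the classical inducers of Icam1, Vcam1 and Sele on endothelium. In the lung, much of the traffic passes through narrow capillaries, and alveolar macrophages and dendritic cells carry high levels of the Itgax chain.

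The arrays held lung RNA of male C57BL/6 mice, 10 weeks old. The 4 control arrays came from mice that were not irradiated. The 5 irradiated arrays came from left lung tissue of mice that had received a single dose under anaesthesia with zoletil and rompun. The study asked how focal high-dose irradiation alters gene expression in the lung. It used more than 1 dose, took irradiated and neighboring regions separately and sampled at several times, and the labels of these arrays give neither dose nor region nor time. Differences of that kind between irradiated arrays are therefore part of their spread. RNA of triplicate experiments was pooled before labeling, so p-values here measure the spread between pools and not between single mice.

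Values are log2 intensities after quantile normalization, and differences are irradiated minus control on that scale. The tissue was lung in all 9 samples by its markers, since the 7 epithelial markers were well above background on every array. The surfactant gene Sftpc read 19.4 on every array. Quantile normalization gives probes of equal rank the same value on each array, so this shows its rank and not equal amounts in the groups. Other tissue varied. The cardiac muscle markers stood at −5.64 relative to the control mean on irradiated array 1, and the skeletal muscle markers at 4.44 on control array 3. By their coordinates on the scanner image, 8 of the arrays fell into pairs of a control and an irradiated array lying 1 array pitch apart. Whether paired arrays shared a slide is not stated in the sources. These position pairs were control 1 with irradiated 2, control 2 with irradiated 3, control 3 with irradiated 4, and control 4 with irradiated 5. Irradiated 1 had no partner. The deviations of paired arrays from their group means correlated across genes with r between 0.18 and 0.43, and fits with the pair as a block are given beside the results that they move.

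Itgam and Itgax are neighbors on chromosome 7 with no protein-coding gene between them, and their brightest probes gave differences of opposite sign, though neither passed the test and the other 2 Itgam probes differed little. Their promoters are shown for this reason, together with that of Icam1, which had the largest difference among the 3 immunoglobulin ligands of the 10 genes. Each line holds the 250 bases before the start given in a RefSeq promoter table on GRCm38.p6, plus strand, 5′ to 3′, at chr7:128062390-128062639 for Itgam, chr7:128129300-128129549 for Itgax and chr9:21015690-21015939 for Icam1. For Itgax and Sele this start lies inside the gene as a RefSeq gene table bounds it, so that the window overlaps the gene. Capitals mark GAGGAA or its reverse complement TTCCTC, a core to which the myeloid factor PU.1 can bind.

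Itgam: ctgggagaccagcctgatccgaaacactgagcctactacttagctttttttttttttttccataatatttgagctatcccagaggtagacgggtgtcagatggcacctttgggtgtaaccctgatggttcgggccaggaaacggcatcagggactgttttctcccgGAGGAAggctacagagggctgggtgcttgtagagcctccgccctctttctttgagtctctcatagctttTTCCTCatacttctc
Itgax: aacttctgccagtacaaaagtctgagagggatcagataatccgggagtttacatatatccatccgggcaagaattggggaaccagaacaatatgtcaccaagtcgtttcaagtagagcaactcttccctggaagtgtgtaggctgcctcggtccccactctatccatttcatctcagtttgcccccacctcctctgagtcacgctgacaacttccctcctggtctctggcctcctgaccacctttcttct
Icam1: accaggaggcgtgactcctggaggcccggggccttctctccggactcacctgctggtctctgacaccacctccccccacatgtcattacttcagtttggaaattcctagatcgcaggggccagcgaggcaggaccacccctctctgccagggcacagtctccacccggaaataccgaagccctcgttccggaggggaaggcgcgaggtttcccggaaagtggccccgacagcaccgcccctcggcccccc

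Of the 3 motifs searched on both strands in this window, the Itgam promoter held 2 matches to GAGGAA, and the Itgax and Icam1 promoters held none of the 3. GAGGAA occurred in 23.3% of 32851 promoters of the same length, TATAAA in 12.4% and the NF-kappaB consensus in 3.9%. The Sele promoter held 1 TATAAA, from 49 to 44 bases before the start of that table, and 1 GAGGAA. The Selp promoter held none. Promoters of the other 5 genes were not analysed here. Matches are a description of the letters and not of bound sites. The NF-kappaB consensus was a fixed pattern, and sites that depart from it were not counted. The lack of a match, as for Icam1 and Sele, therefore does not show that a promoter lacks NF-kappaB sites.

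No gene of the 10 passed the test between irradiated and control arrays (limma, adjusted p under 0.05), in a comparison that called 0.416% of all genes. At an unadjusted p under 0.05, 6 of the 10 passed, against 12.3% of all genes. Of these, 5 were higher in the irradiated lung, namely Itgb2, Itgax, Icam1, Vcam1 and Sele, against 7.37% of all genes, and Itgam was lower. The median difference of the 10 was 0.37, against 0.0085 over all genes. For 2 of the 10, Icam1 and Vcam1, every irradiated array lay above every control array, as was the case for 3.40% of all genes. The 10 genes were chosen with earlier results of these data known, so their shares and median are a description beside those of all genes. With the position pairs as a random block, limma called 5 of the 10, namely Itgb2, Itgam, Itgax, Icam1 and Vcam1, in a fit that called 9.45% of all genes. With the pairs as a fixed block, which drops irradiated 1, it called none of the 10 and 3.84% of all genes.

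**Figure D1:**
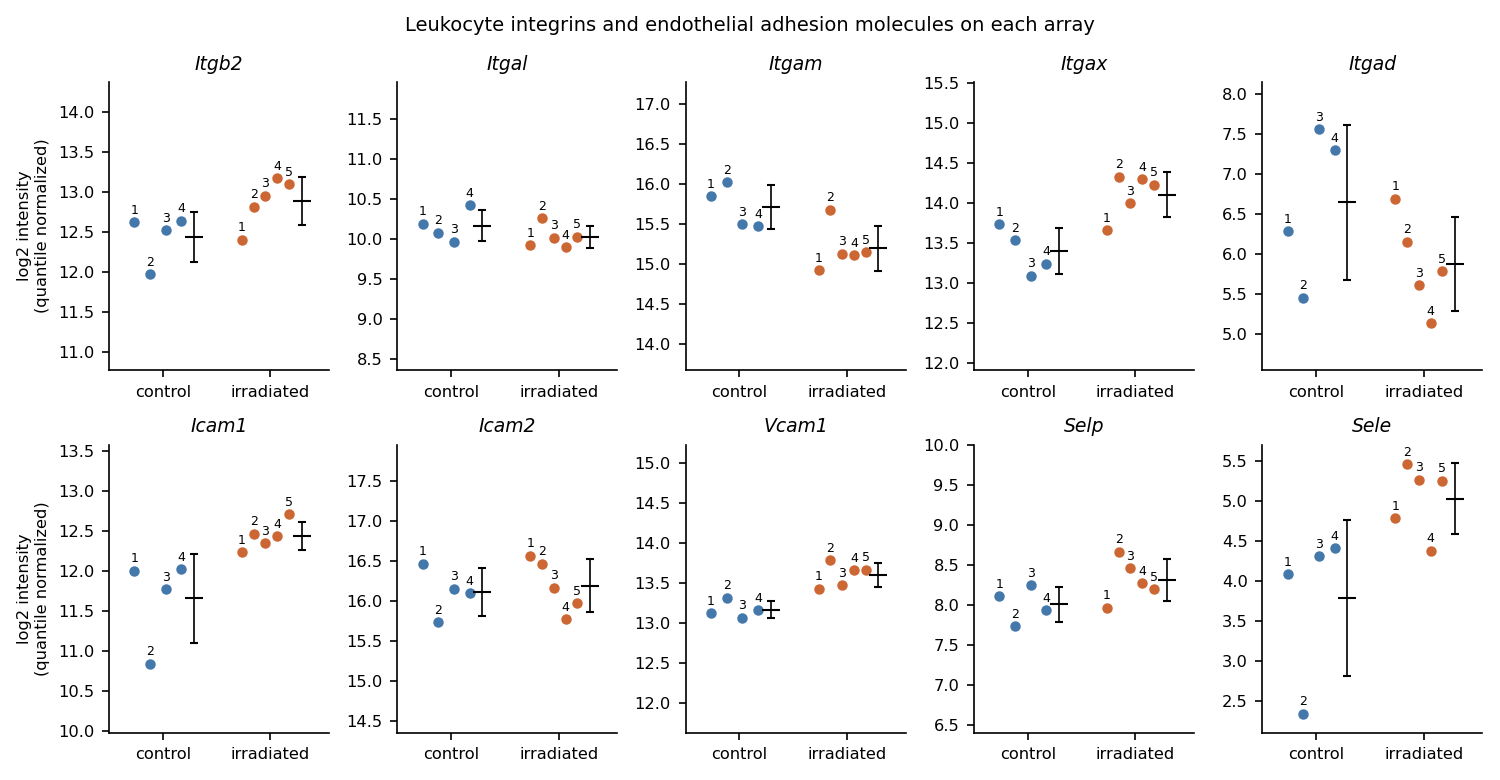
Log2 intensity (quantile normalized, no unit) of each of the 10 genes on the 4 control arrays (blue) and the 5 irradiated arrays (orange), with array numbers above the points and the mean ± SD of each group as a black bar beside it. All panels span the same number of log2 units. The groups do not overlap for Icam1 and Vcam1.

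Icam1 encodes the main endothelial ligand of the beta2 integrins and is also made by alveolar epithelium and macrophages. Its log2 intensity was 12.01, 10.84, 11.77 and 12.02 on control arrays 1 to 4, and 12.24, 12.47, 12.35, 12.43 and 12.71 on irradiated arrays 1 to 5. All irradiated arrays lay above all control arrays, and control 2 was the low one. The difference was 0.78 (SE 0.23, 95% interval 0.27 to 1.29), or 1.72-fold, with a limma adjusted p of 0.235 and an exact permutation p of 0.00794, the smallest that 4 against 5 arrays can give. Without control 2 the difference was 0.51. Within the position pairs, Icam1 was higher on the irradiated array in 4 of 4, by 0.46, 1.50, 0.66 and 0.69. The limma adjusted p was 0.0822 with the pairs as a fixed block and 0.0177 as a random block.

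Vcam1 encodes the ligand of the alpha4 integrins and is induced on activated endothelium. Its log2 intensity was 13.12, 13.31, 13.06 and 13.16 on the control arrays, and 13.43, 13.78, 13.46, 13.65 and 13.66 on the irradiated arrays. It had the narrowest control spread of the 10 genes (SD 0.11, n = 4), and every irradiated array lay above every control array. The difference was 0.43 (SE 0.095, 95% interval 0.22 to 0.64), or 1.35-fold, with a limma adjusted p of 0.106 and an exact permutation p of 0.00794. It was higher in 4 of 4 position pairs, by 0.66, 0.15, 0.59 and 0.50, and its limma adjusted p was 0.0711 with the fixed block and 0.00936 with the random block. A second Vcam1 probe differed in the same direction by 0.50 (SE 0.16, limma adjusted p 0.301). That probe read 9.50, 8.86, 9.44 and 9.42 on the control arrays and 9.60, 10.01, 9.56, 9.90 and 9.91 on the irradiated arrays, again without overlap.

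Icam2 encodes a ligand that resting endothelium carries constitutively. It read 16.46, 15.74, 16.15 and 16.09 on the control arrays and 16.56, 16.46, 16.16, 15.77 and 15.97 on the irradiated arrays. The groups overlapped over almost their whole range. The difference was 0.076 (SE 0.19, 95% interval −0.34 to 0.49, limma adjusted p 0.963), and its sign depended on single arrays. It was −0.018 without irradiated 1 and −0.049 without control 2.

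Among the selectins, Sele encodes E-selectin, which endothelium makes only after stimulation. Its probe was dim, and was well above background on 2 of 4 control and 4 of 5 irradiated arrays. It read 4.09, 2.34, 4.31 and 4.42 on the control arrays and 4.78, 5.46, 5.27, 4.38 and 5.26 on the irradiated arrays. Control 2 stood far below the other control arrays, and irradiated 4 lay below control 4. The difference was 1.24 (SE 0.43, 95% interval 0.27 to 2.21) with a limma adjusted p of 0.332 and an exact permutation p of 0.0238. It was 0.76 without control 2, 0.49 in the table normalized by the authors and 0.25 with another background correction (normexp).

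Selp encodes P-selectin, which endothelium and platelets store in granules. Its probe was printed 10 times on each array, and the SD between these spots was 0.041 to 0.13. The mean read 8.11, 7.74, 8.25 and 7.93 on the control arrays and 7.97, 8.67, 8.46, 8.28 and 8.20 on the irradiated arrays. The groups overlapped. The difference was 0.31 (SE 0.18, 95% interval −0.089 to 0.70, limma adjusted p 0.647), with 4 of 4 position pairs higher, by 0.56, 0.72, 0.025 and 0.27. It was 0.18 with 75th percentile scaling and 0.19 in the table normalized by the authors. Platelet markers were lower on the irradiated arrays, with a list mean between −1.09 and −0.23 (control mean set to 0, control range −0.14 to 0.33). All 6 platelet genes had a lower mean and none passed the test. With the position pairs as a random block, Ppbp, Gp9 and Gp1ba passed (limma adjusted p 0.00663, 0.0215 and 0.0430), in a fit that called 9.45% of all genes. With the fixed block none of the 6 passed (limma adjusted p 0.0727, 0.124 and 0.173 for these 3). Their part in the Selp values was not tested.

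**Figure D2:**
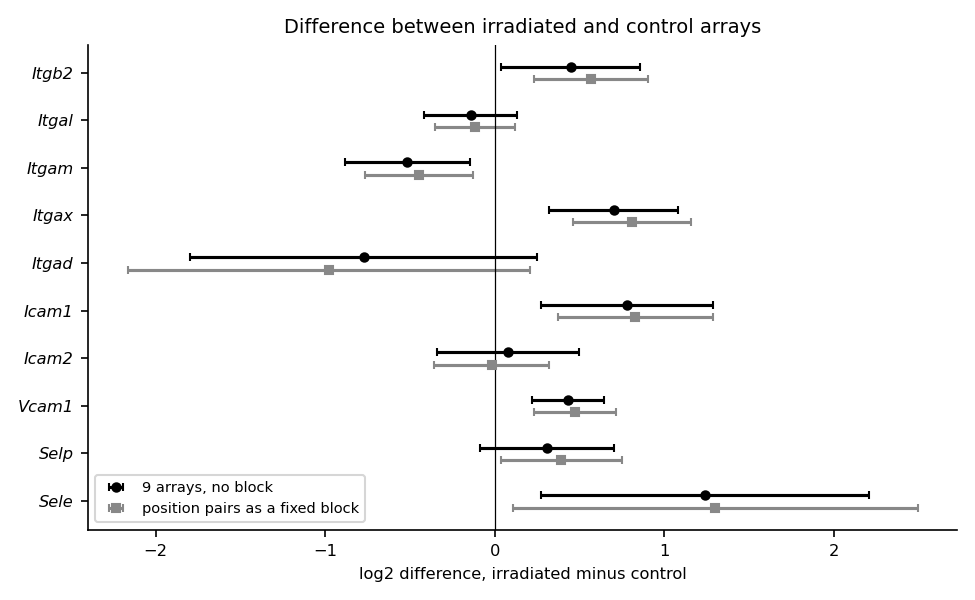
Log2 difference, irradiated minus control, for each of the 10 genes with its 95% interval from limma, without a block (black circles, 9 arrays) and with the position pairs as a fixed block (grey squares). The intervals of Itgb2, Itgam, Itgax, Icam1, Vcam1 and Sele exclude 0 in both fits before adjustment for the number of probes, and Itgam is the only one of these below 0.

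Of the 5 integrin chains, Itgb2 and Itgax had higher and Itgam, Itgal and Itgad lower means in the irradiated lung. Itgb2, the shared chain, read 12.62, 11.98, 12.52 and 12.64 on the control arrays and 12.40, 12.82, 12.96, 13.17 and 13.10 on the irradiated arrays. Irradiated 1 was the only irradiated array below the highest control array. The difference was 0.45 (SE 0.18, 95% interval 0.040 to 0.86) with a limma adjusted p of 0.432 and an exact permutation p of 0.0635. It was 0.29 without control 2 and 0.57 without irradiated 1. Itgb2 was higher in 4 of 4 position pairs, by 0.19, 0.98, 0.65 and 0.46, with a limma adjusted p of 0.0927 under the fixed block and 0.0440 under the random block.

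Itgax encodes the alpha chain known as CD11c. It read 13.74, 13.54, 13.09 and 13.24 on the control arrays and 13.66, 14.33, 13.99, 14.30 and 14.23 on the irradiated arrays. As for Itgb2, irradiated 1 alone lay within the control range. The difference was 0.70 (SE 0.17, 95% interval 0.32 to 1.08), or 1.63-fold, with a limma adjusted p of 0.150 and an exact permutation p of 0.0238. Itgax was higher in 4 of 4 position pairs, by 0.59, 0.46, 1.21 and 0.99. It passed the test without irradiated 1 (0.81, limma adjusted p 0.0394, where 1.65% of all genes passed) and under the random block (limma adjusted p 0.00910), and gave a limma adjusted p of 0.0533 under the fixed block.

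Itgam encodes CD11b, the chain of neutrophils, monocytes and many macrophages. Its brightest probe read 15.85, 16.03, 15.50 and 15.48 on the control arrays and 14.92, 15.68, 15.13, 15.11 and 15.15 on the irradiated arrays. Irradiated 2 alone lay within the control range. The difference was −0.51 (SE 0.17, 95% interval −0.89 to −0.14), or 1.43-fold lower, with a limma adjusted p of 0.288 and an exact permutation p of 0.0317. Itgam was lower in 4 of 4 position pairs, with differences of −0.17, −0.90, −0.38 and −0.33, and its limma adjusted p was 0.136 under the fixed block and 0.0415 under the random block. The other Itgam probes, both well above background on all arrays, gave 0.00035 (SE 0.14) and −0.070 (SE 0.27), and the mean of the 3 probes gave −0.19.

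Itgal encodes CD11a, an alpha chain of leukocytes that is not restricted to lymphocytes. It read 10.20, 10.08, 9.97 and 10.43 on the control arrays and 9.93, 10.26, 10.02, 9.90 and 10.03 on the irradiated arrays, with overlapping groups and a difference of −0.14 (SE 0.12, 95% interval −0.42 to 0.13, limma adjusted p 0.808). The Itgal difference was −0.055 without control 4, −0.21 without control 3 and −0.079 in the table normalized by the authors. A second Itgal probe gave 0.020. Itgad, which encodes CD11d, read 6.28, 5.45, 7.56 and 7.30 on the control arrays and 6.69, 6.15, 5.61, 5.14 and 5.78 on the irradiated arrays. Its control arrays spread most among the integrin chains (SD 0.97, n = 4). The difference was −0.77 (SE 0.46, 95% interval −1.79 to 0.25, limma adjusted p 0.657). It was −0.47 without control 3, −1.17 without control 2 and −0.41 with normexp, and the paired differences were −0.13, 0.16, −2.42 and −1.52. Itgad lies next to Itgax on chromosome 7, so that the 3 adjacent alpha chain genes gave differences of −0.51, 0.70 and −0.77 in order along the chromosome.

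Single arrays shaped several of these values. Irradiated 1 was the lowest of its group for 6 of the 10 genes, and control 2 the lowest of its group for 6. Without irradiated 1, all irradiated arrays lay above all control arrays for 4 genes, Itgb2, Itgax, Icam1 and Vcam1, against 5.47% of all genes.

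In bulk tissue, more cells of a type and more RNA per cell cannot be told apart. The integrin chains were also set against general leukocyte markers of the same array, and Icam1, Icam2, Vcam1, Selp and Sele against endothelial markers. Other cells that carry some of these genes, such as macrophages, platelets and alveolar epithelium, were not used as a reference. The 7 general leukocyte markers had a list mean, with the control mean set to 0, between −0.35 and 0.26 in control lung and between −0.15 and 0.38 in irradiated lung. For the 12 endothelial markers these ranges were −0.085 to 0.14 and −0.28 to 0.24. No marker gene of any cell type passed the test. With the position pairs as a random block, 14 of the 112 marker genes did, 6 higher and 8 lower, against 9.45% of all genes. They included 5 of the macrophage markers, all higher, and 2 of the neutrophil markers, both lower. With the fixed block 5 of the 112 passed, against 3.84% of all genes, with 3 macrophage markers and no neutrophil marker among them. Of the 12 endothelial markers, Tek passed with the random block (limma adjusted p 0.0274) and Tie1 with the fixed block (limma adjusted p 0.0469). Both had a lower mean in irradiated lung. The 11 neutrophil markers had a list mean of −0.54 in irradiated lung (range −0.95 to −0.12, against −0.52 to 0.58 in control lung, so that the ranges overlapped). Of these genes 9 had a lower and 2 a higher mean, from −1.99 for Ngp (limma adjusted p 0.270, well above background on 2 of 5 irradiated arrays) to 0.45 for Mmp8 (limma adjusted p 0.744). Their part in the Itgam values was not tested. The 11 macrophage markers ranged from 0.074 to 0.28 in irradiated lung and from −0.34 to 0.44 in control lung. Within that list the mannose receptor Mrc1 was higher by 0.60 (limma adjusted p 0.0652) and Adgre1 by 0.72 (limma adjusted p 0.138), both chosen after their values were seen, and both without overlap of the groups. The random block called both Mrc1 and Adgre1 (limma adjusted p 0.00458 and 0.00722). The fixed block called Adgre1 (limma adjusted p 0.0420) and not Mrc1 (limma adjusted p 0.0525). Chil3, the brightest of the list, gave 0.68 (limma adjusted p 0.604). Of the 11, 8 had a higher and 3 a lower mean. The 3 were Marco (−0.63, limma adjusted p 0.773) and Siglecf (−0.47, limma adjusted p 0.759), both markers of alveolar macrophages, and Cd163 (−0.55, limma adjusted p 0.890, well above background on 3 of 4 control and 1 of 5 irradiated arrays). The 6 dendritic cell markers averaged 0.40, between −0.19 and 0.88 in irradiated lung and between −0.53 and 0.45 in control lung. Of these, 5 had a higher mean. Cd209a was the only 1 to pass with the random block (limma adjusted p 0.0152) or the fixed block (limma adjusted p 0.0350). The part of these cells in the Itgax values was not tested.

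Relative to the leukocyte markers of the same array, Itgax was higher by 0.61 and Itgam lower, at −0.61, on the irradiated arrays. Relative to the endothelial markers, Sele was higher by 1.32. For these 3 ratios the groups did not overlap, with an exact permutation p of 0.00794 and a Benjamini-Hochberg adjusted p of 0.0370 over 14 ratios. Icam1 gave 0.86 (exact p 0.0238, adjusted 0.0667), Vcam1 0.51 (exact p 0.0397, adjusted 0.0794), Selp 0.39 (exact p 0.111) and Icam2 0.16 (exact p 0.310) relative to endothelium. Relative to the leukocyte markers, Itgb2 gave 0.36 (exact p 0.175), Itgal −0.24 (exact p 0.0556) and Itgad −0.87 (exact p 0.175). Set against Itgb2 itself, Itgam gave −0.96 (exact p 0.0238, adjusted 0.0667), Itgal −0.59 (exact p 0.0397, adjusted 0.0794), Itgad −1.22 (exact p 0.0556, adjusted 0.0864) and Itgax 0.25 (exact p 0.278). A ratio within an array shows unequal change and not which side of it changed. The Itgam ratios rest on its brightest probe, while its other 2 probes gave differences of 0.00035 and −0.070 between the groups. The Sele ratio rests on a probe that was well above background on 2 of 4 control arrays, and was 0.32 with normexp and 0.56 in the table of the authors. The 3 adjusted calls were lost under each of 4 other ways of making the ratio, and with each array left out in turn.

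**Figure D3:**
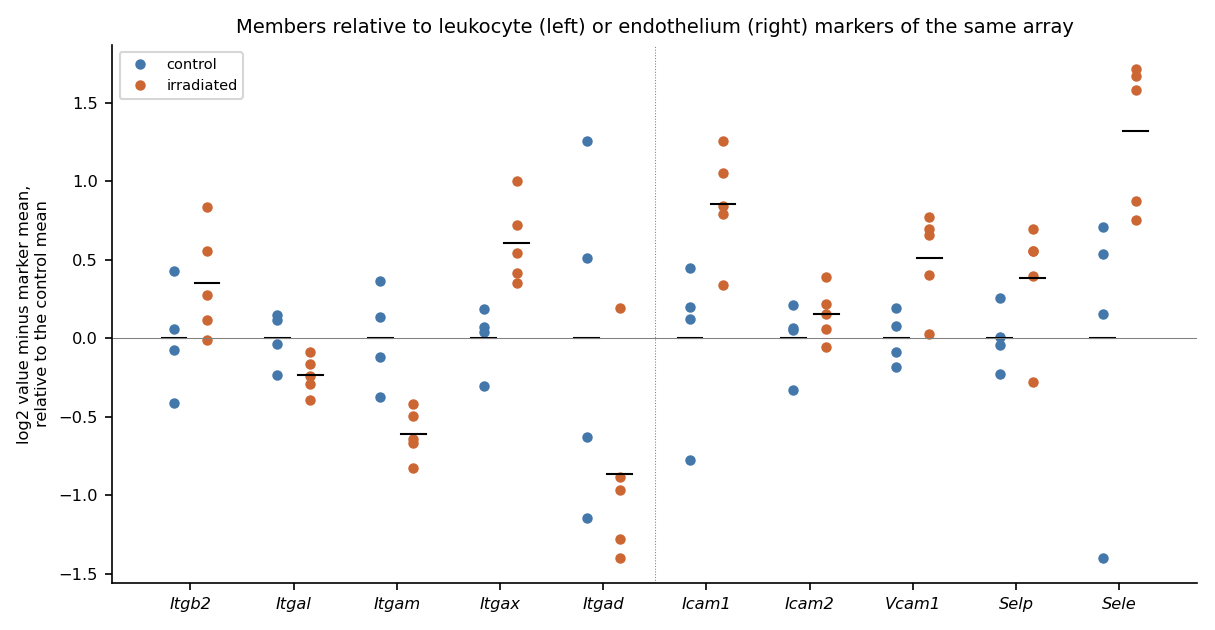
Log2 value of each gene minus the mean of the leukocyte markers (left 5 genes) or endothelial markers (right 5 genes) on the same array, with the control mean set to 0. Points are single arrays and black lines are group means. The groups separate for Itgam (lower, by its brightest probe), Itgax (higher) and Sele (higher).

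The rest of the adhesion pathway was described from a list of 62 genes, of which 61 were measured. One of them passed the test, Gdf15, a secreted cytokine that opposes integrin activation on leukocytes and is a well-known target of p53. It read 9.05, 9.18, 8.74 and 9.24 on the control arrays and 12.46, 12.95, 13.10, 12.61 and 12.36 on the irradiated arrays. The difference was 3.64 (SE 0.17), or 12.5-fold, with a limma adjusted p of 5.23e-05. Over the 61 genes the median difference was 0.10. For 10 genes all irradiated arrays lay above all control arrays and for 2 all lay below, against 3.40% and 1.76% of all genes.

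By role, the endogenous inhibitors of adhesion had the highest median difference among these 61 genes, 0.44 over 7 genes. Besides Gdf15, the groups did not overlap for Slit2 (0.74, limma adjusted p 0.0520), Ptx3 (1.74, limma adjusted p 0.0839, well above background on 2 of 4 control arrays) and Anxa1 (0.44, limma adjusted p 0.0893), named here after their values were seen. Slit2 is a ligand of Robo receptors that restrains leukocyte migration, Ptx3 is a pentraxin that binds P-selectin, and Anxa1 promotes detachment of adherent neutrophils. With the position pairs as a fixed block, 8 of the 61 genes passed the test, Gdf15, Slit2 and Ptx3 among them, and Fut4, Icam5 and Stk4 as well, in a fit that called 3.84% of all genes. Anxa1 did not pass with that block (limma adjusted p 0.0711). It passed with the random block (limma adjusted p 0.00786), in a fit that called 9.45% of all genes.

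The 14 genes of selectin ligands and their glycosylation had a median difference of 0.22. For 3 of them all irradiated arrays lay above all control arrays, against 3.40% of all genes. The largest of these was Fut4, a fucosyltransferase that completes selectin ligands on leukocytes, at 0.70 (SE 0.15, limma adjusted p 0.106). It read 9.56, 9.46, 9.06 and 9.69 on the control arrays and 10.22, 10.12, 10.17, 9.84 and 10.35 on the irradiated arrays. Among the 10 other integrin chains (median −0.14), Itgb1, the beta1 chain that pairs with alpha4 to bind Vcam1, was higher by 0.27 (SE 0.092, limma adjusted p 0.308), again without overlap. Itgb1 passed with the position pairs as a random block (limma adjusted p 0.0313), in a fit that called 9.45% of all genes. The fixed block did not call it (limma adjusted p 0.0977). Its partner Itga4, chosen after its values were seen, gave −0.26 (SE 0.12, limma adjusted p 0.528), with all irradiated arrays below all control arrays.

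Among the 14 other immunoglobulin ligands and junction molecules (median 0.14), the largest non-overlapping difference was that of Icam5, an ICAM best known from neurons, at 0.98 (SE 0.20, limma adjusted p 0.0818). It read 7.47, 7.49, 7.50 and 7.11 on the control arrays and 8.14, 8.30, 8.82, 8.60 and 7.995 on the irradiated arrays. The 15 genes of integrin activation had a median of −0.022. The one gene of them without overlap was Stk4, a kinase needed for integrin activation in lymphocytes, which gave −0.52 (SE 0.11, limma adjusted p 0.0948). It read 12.96, 12.72, 13.16 and 13.04 on the control arrays and 12.32, 12.55, 12.28, 12.61 and 12.48 on the irradiated arrays.

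**Figure D4:**
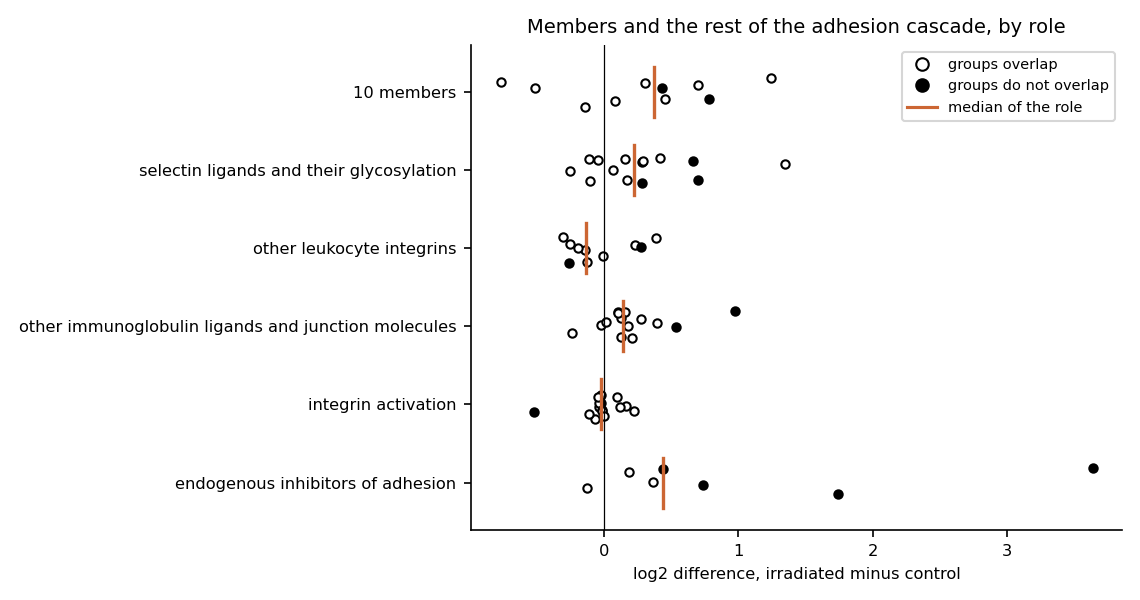
Log2 difference, irradiated minus control, of the 10 genes and of the other genes of the adhesion pathway, for roles that hold several genes. Each circle is a gene, filled where the irradiated and control arrays do not overlap, and the orange line is the median of the role. Gdf15 lies at 3.64 among the inhibitors, and the inhibitors have the highest median of the roles outside the 10 genes.

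None of the 20 genes of cytokines, their receptors and the NF-kappaB pathway, which include inhibitors such as Nfkbia and Tnfaip3, passed the limma test, and 3 had an unadjusted p under 0.05, or 3 of 20 against 12.3% of all genes. With the position pairs as a random block, 4 passed, Il1a, Il13, Relb and Tnfaip3, against 9.45% of all genes, and with the fixed block none passed. Their median difference was 0.13. Il1a, an alarmin of the interleukin-1 family, read 5.45, 4.50, 4.85 and 4.66 on the control arrays and 5.86, 7.79, 6.58, 5.53 and 5.65 on the irradiated arrays. It was higher by 1.42 (SE 0.45, limma adjusted p 0.282), without overlap. Il13, a cytokine of type 2 immunity named here after its values were seen, was well above background on none of the control arrays and on 3 of the 5 irradiated arrays. The groups overlapped (limma adjusted p 0.323). Tnf and Il1b, the classical inducers, were also named after their values were seen. They gave 0.38 (limma adjusted p 0.824) and −0.35 (limma adjusted p 0.718).

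The genes whose values ran most like those of 2 members across the 9 arrays were sought among 15234 genes well above background on all arrays. The correlations include the difference between the groups and are a description. Vcam1 was followed most closely by Cacnb3 (Pearson r 0.970), Gtf3c6 (0.962), Procr (0.945), Lbh (0.944) and Tuba1c (0.935). Procr, which encodes the endothelial protein C receptor, itself gave a difference of 0.87 (limma adjusted p 0.102). Itgb2 was followed by Pcdhb16 (0.969), Naip2 (0.961), Prkar1a (0.950), Cyp51 (0.947) and Otulinl (0.946).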

How the data were processed

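Lung RNA was hybridised to 9 single-color Agilent arrays, and the authors deposited the scanner output as intensity values after Feature Extraction, together with 0 or 1 flags for background. The methods of the study name quantile normalization, a limit of 1.4 times local background and averaging of repeated spots. Here the processed signal was put on the log2 scale with no pseudocount, control spots and outlier spots were left out, probes over 1.4 times local background on at least 4 arrays were kept (39303 of 39429), arrays were quantile normalized, and spots of a probe were averaged. Accessions were matched to RefSeq symbols (26055 probes). A gene was read by its brightest probe, and 88 probes lacked a value on some array. Between 72.8% and 89.1% of spots per array were well above background, with no saturated spot. Precision is limited by how few arrays there are.

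The groups were compared with limma 3.58.1 (R 4.3.3), with an intensity trend and Benjamini-Hochberg adjustment over all probes, and with exact two-sided permutation tests. The script was tested on simulated data. The table normalized by the authors, also of intensity, was deposited on a scale that is not stated (median 2054 to 2056 on each array) and was an alternative. Its spots were numbered by image position, since the file numbers did not match. The other alternatives were normexp correction, 75th percentile scaling, other background filters, each array left out, blocks, no trend, array weights, a stricter threshold, the mean of all probes, and Ptprc or Cdh5 alone as reference. The 10 genes and all lists were chosen with earlier results of these data known. Of the pathway list, 1 gene enters the totals while its own values are not reported here. Besides the 10, the genes named were the pathway genes past the threshold, otherwise per role the largest difference without overlap, the 5 genes most like Vcam1 and Itgb2, and the brightest or most different marker of a list. Any other gene was named after its values were seen. Replicate numbers did not pair the arrays, whose deviations correlated between −0.15 and 0.096 for arrays of the same number. Figures were drawn with matplotlib 3.10.9 (Python 3.11.15).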

Additional observations from a re-analysis of the deposited data

Results flagged for a closer look

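The log2 intensity of Sele on control array 2 was 2.34, against 4.09 to 4.42 on the other 3 control arrays, a gap beyond the 95% limit of Dixon's test. It was the only such value among 48 groups tested, and chance gives about 5% of groups. Icam1 and Itgb2 also had their lowest control value on that array. The Sele probe was well above background on 2 of 4 control arrays, so that the test also ranked values not above background.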

How the results depend on the processing

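The count of probes past the limma threshold was 131 and changed with most settings. It was 197 with the background filter on all 9 arrays, 44 with the authors' table, 44 without an intensity trend, 5 at an adjusted p under 0.01, 1105 with position pairs as a fixed block, 2899 with them as a random block, and 5 to 476 with 1 array left out (476 without irradiated 1). With a block on the replicate number of the labels, which does not pair the arrays, it was 1, and none of the 10 genes passed.

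Of the 10 genes, 5 passed with the random block (9.45% of all genes) and 0 to 1 with an array left out, and none in the other settings. The 1 was Itgax without irradiated 1, where 1.65% of all genes passed. The count above all control arrays was 2 in the main setting, against 3.40% of all genes. It was 3 with normexp and with 75th percentile scaling, 1 in the authors' table, and 2 to 4 with an array left out. The 4 were found without irradiated 1, against 5.47% of all genes. For the other settings that share is not given. Of the pathway, 2 genes passed with the filter on all 9 arrays, 8 with the fixed block and 10 with the random block, where 0.75%, 3.84% and 9.45% of all genes passed. Gdf15 passed in every setting. The Icam2 difference ranged from −0.049 (without control 2) to 0.19 (without control 1) with an array left out, and turned to −0.018 without irradiated 1 and −0.018 with the fixed block. The signs of the other 9 differences held in all 21 alternatives.

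For the ratios of Itgam, Itgax and Sele to their markers, the values and Benjamini-Hochberg adjusted exact p were −0.64, 0.60 and 0.32 (0.0556, 0.0556 and 0.111) with normexp, −0.61, 0.62 and 1.16 (0.0667, 0.0667 and 0.148) with 75th percentile scaling, −0.49, 0.53 and 0.56 (0.0741, 0.0556 and 0.239) in the authors' table, and −0.51, 0.71 and 1.48 (0.125, 0.111 and 0.111) against Ptprc or Cdh5 alone. With an array left out they ranged from −0.73 to −0.49, from 0.51 to 0.67 and from 0.85 to 1.56. No call of these ratios was kept there, where fewer arrays raise the smallest possible p. Ratios without a call moved by over 1.5 times as well, down to 0.22 for Itgb2 and −0.45 for Itgad relative to the leukocyte markers, 0.045 for Icam2 relative to the endothelial markers and between 0.12 and 0.45 for Itgax relative to Itgb2. The cause of the other shifts was not tested. Signal over background limits Sele, Il13, Ptx3, Ngp and Cd163 among the genes named.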
